A study of Mus musculus with 18 samples.

Results

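The effect of a transfer labelled AOS FMT on the kidney of mice given STZ was read from 6 of the 18 kidney samples of the series, 3 in the group STZ+AOS-FMT and 3 in the group STZ+control-FMT, each taken by the treatment in its label. Faecal microbiota transplantation (FMT) passes gut microbes of a donor to a recipient. All 6 samples came from ICR mice aged 10 weeks that had been given STZ, by usage short for streptozotocin, which kills insulin-making cells and is a common way to induce diabetes in mice. Those of STZ+AOS-FMT carry the label of AOS at 10 mg/kg with FMT, and those of STZ+control-FMT that of a control FMT. The labels do not spell out AOS, do not say how the donors were kept or whether the recipients also received AOS, and give neither blood glucose nor the hour at which the kidneys were taken. The other 12 samples, 3 per group, came from mice of the same strain and age given AOS at 10 mg/kg on top of STZ (STZ+AOS), STZ alone (STZ), the same dose of AOS alone (AOS) or neither (control). The design text of the series names the effect of FMT on the STZ-damaged kidney as its question.

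RNA of whole frozen kidney was sequenced, and the values are FPKM, reads or fragments per kilobase of gene length and of reads assigned in the library. Between 11581 and 12061 genes reached 1 FPKM in each of the 6 libraries. The depth is unknown because the table holds no counts. By genes near the detection limit, the FPKM that 1 read was worth was estimated relative to the lowest library. It was 1.034, 1.038 and 1.067 in STZ+AOS-FMT and 1.0, 1.013 and 1.004 in STZ+control-FMT. Only values within 1.5 times of a gene's smallest were used, so this estimate could not show a larger difference in depth. The libraries correlated at r = 0.9889 to 0.9918 within a group (6 pairs) and at 0.9833 to 0.9913 between the groups (9 pairs), as a description over genes, which are not independent. On the first principal component, with 37% of the variance, STZ+AOS-FMT 2 lay at -23.5 and STZ+control-FMT 3 at 17.0, and the other 4 libraries lay between -1.86 and 7.63. Markers of kidney cells were present at high levels, with a sum over 19 proximal tubule markers of 9743 to 10930 FPKM in STZ+AOS-FMT and 8876 to 10050 FPKM in STZ+control-FMT.

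No gene passed the threshold. Of the 11967 genes at 1 FPKM or more in 3 or more of the 6 libraries, limma called 0 (0%) at an adjusted p of 0.05. At an unadjusted p under 0.05 there were 720 genes (6.02%), 394 higher in STZ+AOS-FMT (3.29%) and 326 lower (2.72%). The 3 values of one group all lay on one side of the 3 of the other for 1364 genes (11.4%), which is called no overlap here, with 795 higher in STZ+AOS-FMT (6.64%) and 569 lower (4.75%). Over all genes 48.6% lay above 0 and 51.4% under 0, with a median log2 difference of -0.0041. A log2 difference is that of the group means of log2(FPKM + 1), STZ+AOS-FMT minus STZ+control-FMT, given ± its standard error, and it understates changes of genes near 0. With 3 samples against 3, no exact permutation p can be smaller than 0.1, so single genes rest on the fit across all genes.

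The circadian clock genes stood out by count. Of 19 such genes, all 19 kept, 9 were higher in STZ+AOS-FMT and 3 lower with no overlap between the groups, 12 of 19 (63.2%) against 11.4% of all genes. The same 9 and 3 genes had an unadjusted p under 0.05, and none of the 19 passed over all genes. The clock of mammalian cells is a loop of transcription: CLOCK or NPAS2 pairs with BMAL1, the product of Arntl, and switches on genes that hold an E-box, among them the Per and Cry repressors, the nuclear receptors Nr1d1 and Nr1d2 and the output factors Dbp, Tef and Hlf. The Nr1d receptors in turn repress Arntl, Npas2 and Nfil3 through ROR elements, and DBP, TEF and HLF share D-boxes with the repressor NFIL3. In the kidney this clock is known for daily rhythms of salt handling and filtration. The labels do not give the hour at which the kidneys were taken, and its part in these differences was not tested.

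Ciart (chromosome 3, 95878503 to 95882251 of mm10), which encodes the clock repressor CHRONO, had the smallest p of all genes. It was at 14.2, 16.9 and 15.2 FPKM in STZ+AOS-FMT, against 7.71, 6.41 and 7.16 FPKM in STZ+control-FMT. The lowest STZ+AOS-FMT library thus lay well above the highest of STZ+control-FMT. The means were 15.45 ± 1.39 and 7.09 ± 0.653 FPKM (SD, n = 3 each), with a log2 difference of 1.02 ± 0.09 (unadjusted p = 5.45e-06, limma adjusted p = 0.0652).

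The output factors that bind D-boxes lay higher together. Dbp (chromosome 7, 45705088 to 45710203) was at 114, 112 and 113 FPKM in STZ+AOS-FMT, against 51.1, 78.2 and 57.0 FPKM in STZ+control-FMT, a log2 difference of 0.87 ± 0.14 (limma adjusted p = 0.472). Its values hardly varied within STZ+AOS-FMT, and STZ+control-FMT 2 was the nearest to them. Without that library the limma adjusted p of Dbp was 0.0286, and Dbp was then the 1 gene past the threshold. Tef had 102, 104 and 116 FPKM in STZ+AOS-FMT and 74.1, 86.2 and 78.1 FPKM in STZ+control-FMT, a log2 difference of 0.43 ± 0.08. Hlf had 28.1, 30.0 and 31.4 FPKM in STZ+AOS-FMT and 21.9, 24.8 and 21.9 FPKM in STZ+control-FMT, a difference of 0.37 ± 0.08. Neither gene's groups overlapped.

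Most of the repressors were higher as well. Per3 stood at 5.67, 5.46 and 7.90 FPKM in STZ+AOS-FMT and 3.37, 3.78 and 3.92 FPKM in STZ+control-FMT, a log2 difference of 0.63 ± 0.14. Per2 stood at 8.25, 6.95 and 13.0 FPKM in STZ+AOS-FMT and 2.92, 5.78 and 6.57 FPKM in STZ+control-FMT, a difference of 0.78 ± 0.31. In both Per genes the highest value was that of STZ+AOS-FMT 3, which was also the highest for Cry2. The nuclear receptor gene Nr1d2 was at 29.2, 28.03 and 35.4 FPKM in STZ+AOS-FMT and 20.3, 22.4 and 22.6 FPKM in STZ+control-FMT, a difference of 0.48 ± 0.10. Usp2, a deubiquitinase of the clock's output, averaged 57.0 ± 8.47 FPKM in STZ+AOS-FMT and 44.1 ± 3.05 FPKM in STZ+control-FMT (SD, n = 3 each). Cry2 averaged 6.85 ± 1.73 FPKM in STZ+AOS-FMT and 5.10 ± 0.244 FPKM in STZ+control-FMT (SD, n = 3 each).

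The activators Arntl and Npas2 and the repressor Nfil3 lay on the other side. Arntl (chromosome 7, 113207465 to 113314126) was at 1.49, 1.82 and 1.39 FPKM in STZ+AOS-FMT, against 5.93, 3.15 and 3.58 FPKM in STZ+control-FMT, a log2 difference of -0.99 ± 0.19 (unadjusted p = 0.00101, limma adjusted p = 0.502). Npas2 was at 1.04, 1.42 and 0.62 FPKM in STZ+AOS-FMT and 3.22, 1.94 and 1.86 FPKM in STZ+control-FMT, a difference of -0.72 ± 0.20. STZ+control-FMT 1 held the highest value of both activators. Nfil3 was at 2.18, 1.73 and 3.77 FPKM in STZ+AOS-FMT and 4.86, 4.36 and 5.88 FPKM in STZ+control-FMT, a difference of -0.79 ± 0.21. All 3 genes are near the low end of the kept genes, where the added 1 FPKM shrinks a difference most.

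**Figure D1:**
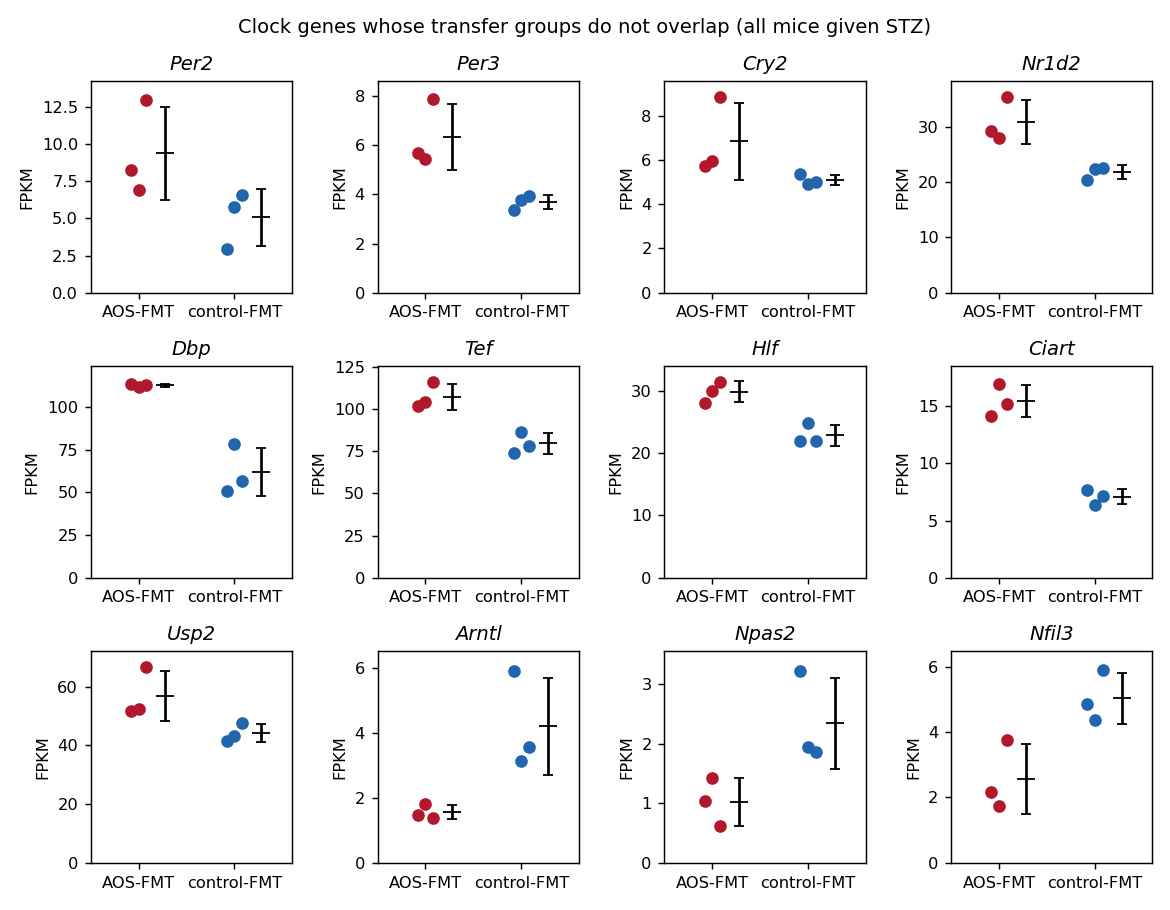
FPKM (y axes, from 0) of the 12 clock genes with no overlap between STZ+AOS-FMT (left, red) and STZ+control-FMT (right, blue). Points are replicates 1, 2 and 3 from left to right and the bars beside them the mean ± SD (n = 3); the first 9 panels are higher in STZ+AOS-FMT and the last 3 (Arntl, Npas2 and Nfil3) lower.

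The other 7 clock genes overlapped between the groups. Nr1d1, the partner receptor of Nr1d2, was at 48.3, 46.8 and 28.2 FPKM in STZ+AOS-FMT and 46.0, 47.0 and 36.9 FPKM in STZ+control-FMT, a log2 difference of -0.10 ± 0.22. Per1 was at 7.27, 4.22 and 12.8 FPKM in STZ+AOS-FMT and 4.55, 4.75 and 10.1 FPKM in STZ+control-FMT, a difference of 0.25 ± 0.44. For Nr1d1 the third library of each group was the lowest, and for Per1 the highest. Cry1, Bhlhe40, Bhlhe41 and Clock had log2 differences between -0.13 ± 0.09 (Clock) and 0.41 ± 0.29 (Bhlhe40). Without STZ+AOS-FMT 3, the signs of Nr1d1, Per1 and Cry1 turned.

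**Figure D2:**
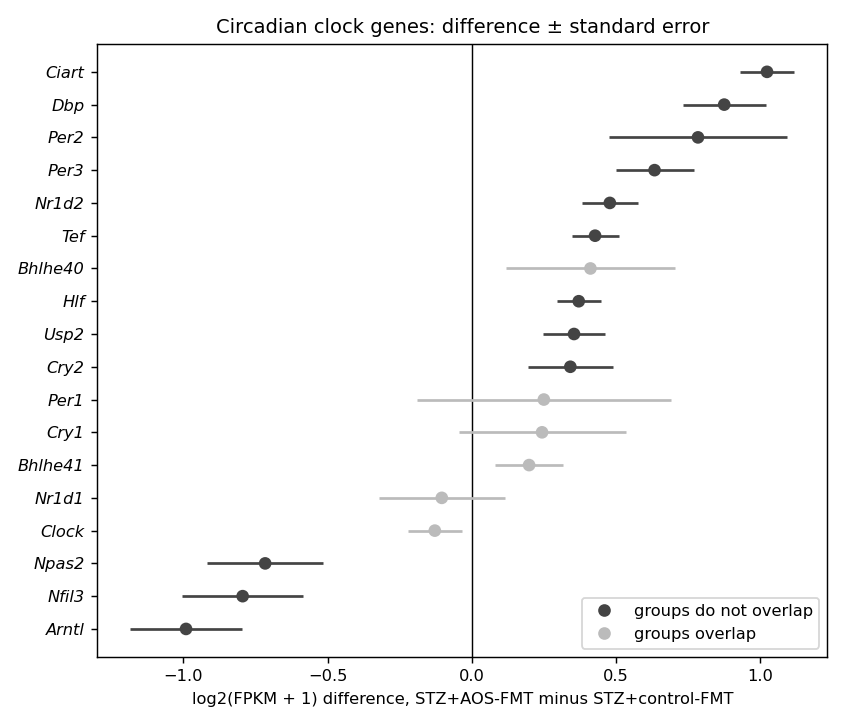
Difference of log2(FPKM + 1), STZ+AOS-FMT minus STZ+control-FMT (x axis), of 18 clock genes (rows) with its standard error from limma. Dark points are the 12 genes with no overlap between groups, from Ciart at 1.02 to Arntl at -0.99, and grey points 6 that overlap.

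With each of the 6 libraries left out in turn, 12 to 14 of 19 clock genes were without overlap, and 19.3 to 24.5% of all genes were. Leaving a library out cannot make separated groups overlap. This count therefore could not fall below 12, and it cannot show whether the 12 hang on 1 library. The count was 13 after quantile normalization and 12 after median-of-ratios rescaling, where the background was 12.4% and 11.7%. It was 9 of 14 kept genes when a mean of at least 5 FPKM was asked for. The clock genes are linked in 1 loop, so they are not independent of each other.

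Promoter sequences are shown for 4 clock genes to set the letters of the clock's elements beside the values above. Windows of 250 bases before and 50 after a RefSeq gene start (GRCm38.p6) were found for 16 of the 19 clock symbols and searched on both strands for the E-box CACGTG, the D-box TTATGTAA and the ROR element TAGGTCA. These motifs and the genes shown were chosen after the values and matches had been seen. The shorter AGGTCA and the variant TAGGTTA were also looked at and are not reported. Some of the 16 clock genes had more than 1 window, 21 in all. The E-box stood in 7.15% of all 32851 windows and in 6 of these 21 (5 of 16 genes). The D-box stood in 0.938% and 1 of 21 (1 of 16 genes), and the ROR element in 2.61% and 2 of 21 (2 of 16 genes). Capitals mark the matches in the 250 bases before the start, 5′ to 3′ on the gene's strand, and no motif overlaps another.
Ciart, chr3:95882229-95882478, minus strand, E-boxes first read 116, 58 and 44 bases before the start: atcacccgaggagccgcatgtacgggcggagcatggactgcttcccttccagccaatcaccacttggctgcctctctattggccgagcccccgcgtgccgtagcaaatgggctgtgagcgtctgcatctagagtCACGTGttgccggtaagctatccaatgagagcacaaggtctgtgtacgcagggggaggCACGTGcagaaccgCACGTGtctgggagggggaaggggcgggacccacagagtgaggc
Per3, chr4:151044666-151044915, minus strand, D-boxes 205 and 158 bases before the start: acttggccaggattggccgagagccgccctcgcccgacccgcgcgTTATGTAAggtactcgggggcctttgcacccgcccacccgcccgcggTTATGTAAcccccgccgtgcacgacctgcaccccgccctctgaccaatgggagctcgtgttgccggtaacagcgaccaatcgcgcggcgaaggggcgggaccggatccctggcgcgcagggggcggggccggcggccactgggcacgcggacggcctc
Tef, chr15:81811164-81811413, plus strand, the E-box 138 bases before the start: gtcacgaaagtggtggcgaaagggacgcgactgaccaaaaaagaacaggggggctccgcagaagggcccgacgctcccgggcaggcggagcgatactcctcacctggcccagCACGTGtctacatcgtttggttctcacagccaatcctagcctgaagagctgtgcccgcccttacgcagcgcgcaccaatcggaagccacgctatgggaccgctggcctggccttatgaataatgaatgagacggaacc
Nfil3, chr13:52981040-52981289, minus strand, the ROR element on the opposite strand (TGACCTA) 12 bases before the start: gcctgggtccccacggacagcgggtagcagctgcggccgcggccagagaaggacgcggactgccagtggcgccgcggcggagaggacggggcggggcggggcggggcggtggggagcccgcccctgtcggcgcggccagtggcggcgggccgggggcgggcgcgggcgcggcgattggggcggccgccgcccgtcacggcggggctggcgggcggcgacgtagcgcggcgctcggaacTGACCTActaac
Ciart, Per3 and Tef were higher in STZ+AOS-FMT and Nfil3 was lower. The other window of Tef, not shown, also held an E-box, 127 bases before its start. The second window of Arntl held a ROR element 31 bases after the start, and windows of Per1, Cry1 and Bhlhe41, whose groups overlapped, held an E-box. None of the 3 motifs was found in the windows of Dbp, Hlf, Nr1d1, Nr1d2, Npas2, Cry2, Clock or Usp2, which says only that these letters are not in the windows searched.

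Levels in the other 12 libraries were compared for Dbp, Arntl and Ciart. Dbp, at 112 to 114 FPKM in STZ+AOS-FMT and 51.1 to 78.2 FPKM in STZ+control-FMT, had 19.4, 82.1 and 23.9 FPKM in the STZ+AOS samples, 6.99, 31.4 and 34.1 FPKM in STZ, 26.0, 36.5 and 11.5 FPKM in AOS and 2.76, 6.90 and 90.6 FPKM in the controls. The 3 libraries of STZ+AOS-FMT were the highest of all 18. Arntl, at 1.39 to 1.82 FPKM in STZ+AOS-FMT and 3.15 to 5.93 FPKM in STZ+control-FMT, was at 3.21 to 12.85 FPKM in STZ+AOS, 4.39 to 8.06 FPKM in STZ, 4.59 to 8.24 FPKM in AOS and 12.5, 10.05 and 2.71 FPKM in the controls. Here STZ+AOS-FMT held the 3 lowest values, and control 3 came next. Ciart did not set STZ+AOS-FMT apart, with 18.01 FPKM in control 3, 13.75 FPKM in STZ+AOS 2 and 0.33 to 9.92 FPKM in the other 10 libraries outside the transfer groups. The SD of Dbp was 0.895 FPKM in STZ+AOS-FMT, 14.2 FPKM in STZ+control-FMT and 49.6 FPKM in the controls (n = 3 each), whereas that of Hlf was 1.68 FPKM in STZ+AOS-FMT, 1.70 FPKM in STZ+control-FMT and 1.71 FPKM in the controls. A limma fit of all 18 libraries, which takes 1 spread from all groups, gave 2 of 19 clock genes an unadjusted p under 0.05. Of all genes in that fit, 209 of 12682 had one. In the fit of the 6 libraries it was 12 of 19 clock genes, beside 720 of 11967 genes (6.02%).

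**Figure D3:**
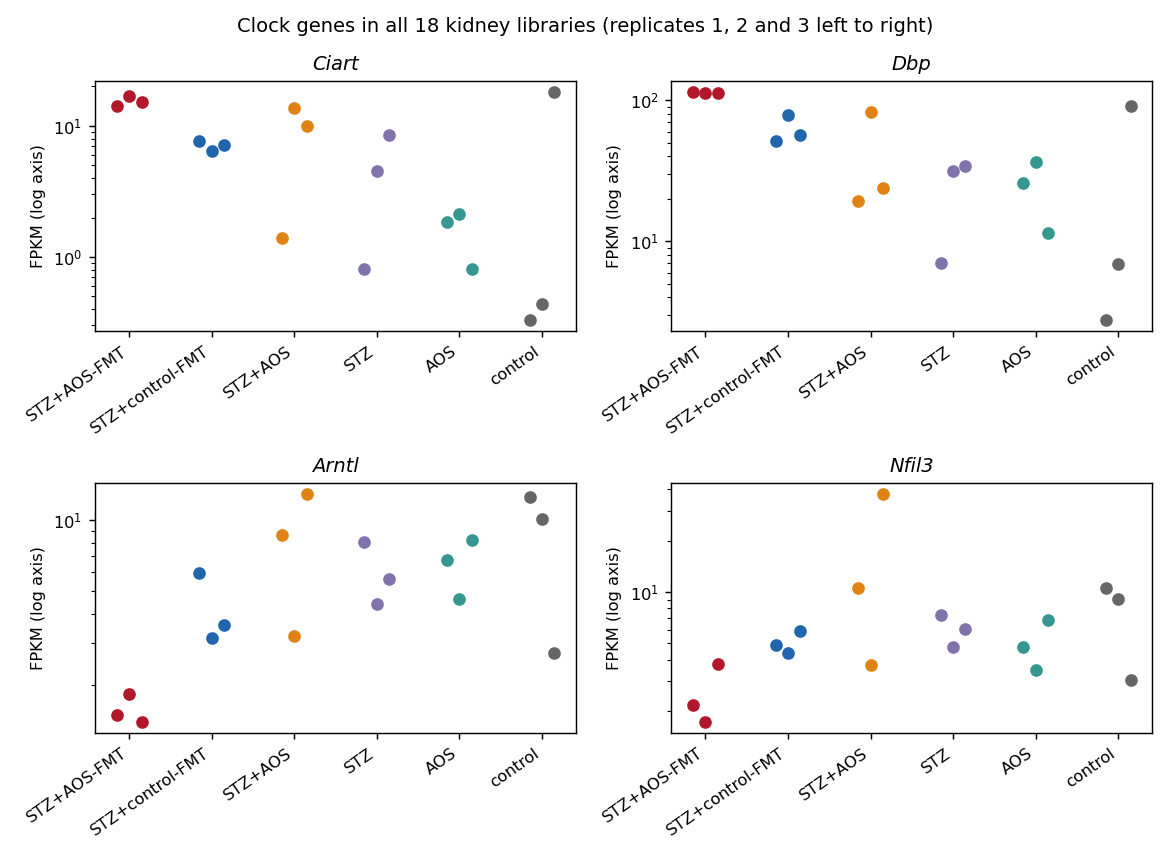
FPKM on a log axis of Ciart, Dbp, Arntl and Nfil3 in all 18 libraries, by group (x axis), replicates 1, 2 and 3 from left to right. For Dbp the 3 STZ+AOS-FMT libraries lie above all others and for Arntl below all others, and control 3 lies near them in all 4 panels.

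Genes of the proximal tubule were mostly a little higher in STZ+AOS-FMT. Of 19 proximal tubule markers 16 were higher and 3 lower, with a median log2 difference of 0.14 beside -0.0041 over all genes, and 6 (31.6%) were higher with no overlap, beside 6.64% of all genes. None passed over all genes. With single libraries left out 6 to 11 were free of overlap, most without STZ+AOS-FMT 3, where 19.3% of all genes were. Leaving a library out cannot lower this count, so it cannot show whether the 6 hang on 1 library. The count was 7 after quantile normalization and 4 after median-of-ratios rescaling, where 12.4% and 11.7% of all genes were free of overlap. Lrp2, which encodes the endocytic receptor megalin, was at 132, 143 and 129 FPKM in STZ+AOS-FMT, against 109.3, 113 and 109 FPKM in STZ+control-FMT, a difference of 0.28 ± 0.06 (limma adjusted p = 0.574). Cubn, its partner receptor cubilin, was at 59.9, 56.0 and 68.7 FPKM in STZ+AOS-FMT and 49.3, 49.9 and 49.6 FPKM in STZ+control-FMT, a difference of 0.30 ± 0.08. The STZ+control-FMT values of both receptors lay within a few FPKM of each other. The dicarboxylate transporter gene Slc13a3 averaged 384 ± 14.2 FPKM in STZ+AOS-FMT and 319 ± 24.9 FPKM in STZ+control-FMT, and the amino acid transporter gene Slc7a13 305 ± 4.97 FPKM in STZ+AOS-FMT and 253 ± 18.1 FPKM in STZ+control-FMT (SD, n = 3 each). In whole kidney, fewer cells of a type and less RNA per cell cannot be told apart.

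Transporters of organic ions and drugs, which the proximal tubule uses to secrete and take up solutes, followed. Of 12 kept members of 14, 9 were higher and 3 lower, and 4 were higher with no overlap, beside 6.64% of all genes: Slco1a6, Slc22a5, Slc47a1 and Abcc2. Without STZ+AOS-FMT 3 8 of the 12 were free of overlap, beside 19.3% of all genes, a count that leaving a library out cannot lower. It was 3 after quantile normalization and 3 after median-of-ratios rescaling, beside 12.4% and 11.7% of all genes. The organic anion transporter gene Slco1a6 was at 227, 224 and 205 FPKM in STZ+AOS-FMT, against 160.3, 164 and 172 FPKM in STZ+control-FMT, a difference of 0.40 ± 0.07 (limma adjusted p = 0.472). Slc22a5, the carnitine transporter gene, was at 97.95, 104 and 115 FPKM in STZ+AOS-FMT and 93.1, 82.0 and 84.2 FPKM in STZ+control-FMT, a difference of 0.29 ± 0.08. For Slc22a5 the nearest libraries of the groups were close, whereas for Slco1a6 the gap was wider. Slc47a1, which exports organic cations into the urine, had a difference of 0.22 ± 0.08, and Abcc2, an export pump for conjugates, one of 0.28 ± 0.11.

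Genes of glucose handling were also mostly a little higher in STZ+AOS-FMT. Of 10 genes of glucose transport and gluconeogenesis, 8 were higher and 2 lower, with a median of 0.15, and 2 were higher with no overlap, beside 6.64% of all genes. Slc37a4, which carries glucose 6-phosphate into the endoplasmic reticulum, was at 213, 230.1 and 228 FPKM in STZ+AOS-FMT and 192, 200.7 and 157 FPKM in STZ+control-FMT, a difference of 0.29 ± 0.10. Slc5a2, the main glucose reabsorption transporter of the early tubule (SGLT2), was at 310.4, 345 and 286 FPKM in STZ+AOS-FMT and 257, 295 and 234 FPKM in STZ+control-FMT. Its groups overlapped through STZ+AOS-FMT 3 and STZ+control-FMT 2. Slc2a1, the widespread glucose transporter GLUT1, lay lower with a small overlap, at 17.6, 14.2 and 16.1 FPKM in STZ+AOS-FMT and 17.5, 19.3 and 21.8 FPKM in STZ+control-FMT.

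Among enzymes of drug and solute metabolism, 3 of 12 kept P450 genes were higher with no overlap, beside 6.64% of all genes, but 6 of the 12 were higher and 6 lower, with a median of -0.01. Cyp2a5 was at 104, 111 and 147 FPKM in STZ+AOS-FMT, against 61.0, 58.9 and 82.1 FPKM in STZ+control-FMT, a difference of 0.83 ± 0.17 (limma adjusted p = 0.574). Reads of Cyp2a5 can be shared with its near-identical neighbour Cyp2a4, which had a difference of 0.05 ± 0.15, so the value is uncertain. Fmo1, a monooxygenase that oxidises amines such as those made from gut microbial products, was at 498, 459.8 and 513 FPKM in STZ+AOS-FMT and 429, 397 and 385 FPKM in STZ+control-FMT, a difference of 0.28 ± 0.07. Slc51a, a subunit of the bile acid exporter, was at 83.5, 106 and 88.5 FPKM in STZ+AOS-FMT and 63.6, 71.3 and 78.8 FPKM in STZ+control-FMT, a difference of 0.37 ± 0.11. Of 14 kept genes of gut-derived solutes and bile acids, 7 were higher and 7 lower, so Fmo1 and Slc51a did not speak for their list.

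**Figure D4:**
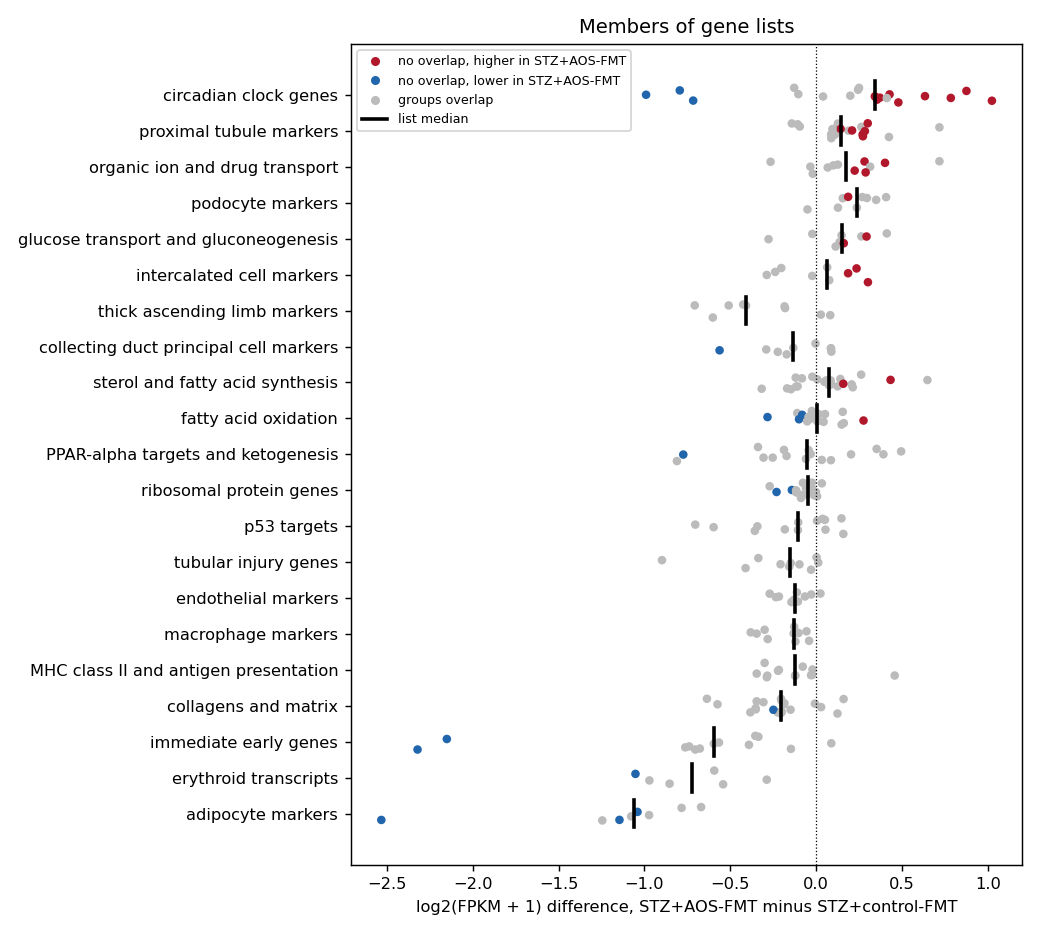
Difference of log2(FPKM + 1), STZ+AOS-FMT minus STZ+control-FMT (x axis), of the kept members of 21 gene lists (rows), with the list median as a black bar. Red and blue points are genes with no overlap, higher and lower in STZ+AOS-FMT; the clock list holds more of them than any other list shown, at 12 of 19, and the adipocyte, erythroid and immediate early lists lie to the left with medians of -1.06, -0.72 and -0.60.

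Several lists moved with a single library. Adipocyte markers were lower for all 8 kept genes, with a median of -1.06, and their sum was 807.5, 169 and 869 FPKM in STZ+AOS-FMT and 1068, 849.8 and 1413 FPKM in STZ+control-FMT. With all 6 libraries 3 of the 8 were lower with no overlap (37.5%), beside 4.75% of all genes. STZ+AOS-FMT 2 stood far below the other 5 libraries, and without it the median was -0.28, with 7 lower and 1 higher. Without STZ+AOS-FMT 2 there were again 3 free of overlap, beside 21.2% of all genes, a count that leaving a library out cannot lower. With any other library left out the median lay between -0.90 and -1.45 and all 8 were lower. Cidea, a lipid droplet gene of brown fat, was low in all 3 libraries of STZ+AOS-FMT: it was at 1.17, 0.36 and 0.92 FPKM in STZ+AOS-FMT, against 9.53, 16.1 and 5.10 FPKM in STZ+control-FMT, a difference of -2.53 ± 0.39 (limma adjusted p = 0.472). Fabp4, which carries fatty acids in fat cells and capillaries, was at 299, 83.3 and 281 FPKM in STZ+AOS-FMT and 418, 329.7 and 448 FPKM in STZ+control-FMT. The part of fat attached to the kidney in these values was not tested.

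Markers of the thick ascending limb, the salt-reabsorbing end of the loop of Henle, were lower for 7 of 9 genes, with a median of -0.41. Umod, the gene of the main urinary protein uromodulin, was at 451, 307 and 430.1 FPKM in STZ+AOS-FMT and 445, 554 and 697 FPKM in STZ+control-FMT, a difference of -0.51 ± 0.21 (limma adjusted p = 0.821). None of the 9 genes was free of overlap with all 6 libraries, beside 11.4% of all genes. Without STZ+AOS-FMT 1 5 were and without STZ+control-FMT 1 6 were, with medians of -0.58 and -0.50, beside 24.5% and 21.2% of all genes. Without STZ+AOS-FMT 2 0 were and without STZ+AOS-FMT 3 1 was, beside 21.2% and 19.3%. Slc12a1, the salt transporter gene that loop diuretics act on, was at 112, 67.0 and 89.5 FPKM in STZ+AOS-FMT and 106, 123 and 125 FPKM in STZ+control-FMT. STZ+AOS-FMT 2 was again the lowest library, and the median was -0.22 without it and -0.27 without STZ+control-FMT 3.

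Immediate early genes, which are switched on within minutes of a stimulus, were lower for 12 of 13 kept genes with a median of -0.60. Egr1 was at 2.55, 2.67 and 3.49 FPKM in STZ+AOS-FMT, against 6.42, 96.9 and 9.06 FPKM in STZ+control-FMT. Fos was at 2.46, 0.90 and 1.19 FPKM in STZ+AOS-FMT, against 4.14, 47.3 and 4.08 FPKM in STZ+control-FMT. The values of STZ+control-FMT 2 were far above all others, and without it the median of the list was -0.20, with 10 lower and 3 higher. Without STZ+control-FMT 1 it was -1.04, with 13 of 13 lower. Egr1 and Fos were the 2 members without overlap (15.4%), beside 11.4% of all genes. When STZ+control-FMT 1 was left out, 8 were free of overlap, beside 21.2% of all genes. When any 1 STZ+AOS-FMT library was left out, 3 were, beside 19.3 to 24.5% of all genes. Red cell transcripts summed to 8102, 5889 and 7752 FPKM in STZ+AOS-FMT and 15180, 7595 and 28090 FPKM in STZ+control-FMT, and all 6 kept genes were lower, with a median of -0.72. STZ+control-FMT 1 and 3 were the highest. The median was -0.44 without STZ+control-FMT 3 and -0.42 without STZ+AOS-FMT 2, but -1.39 without STZ+control-FMT 2 and -1.14 without STZ+AOS-FMT 3. With all libraries 1 of 6 was free of overlap, beside 11.4% of all genes. Without STZ+control-FMT 2 it was 3 of 6, beside 23.1% of all genes, the most with a library left out.

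**Figure D5:**
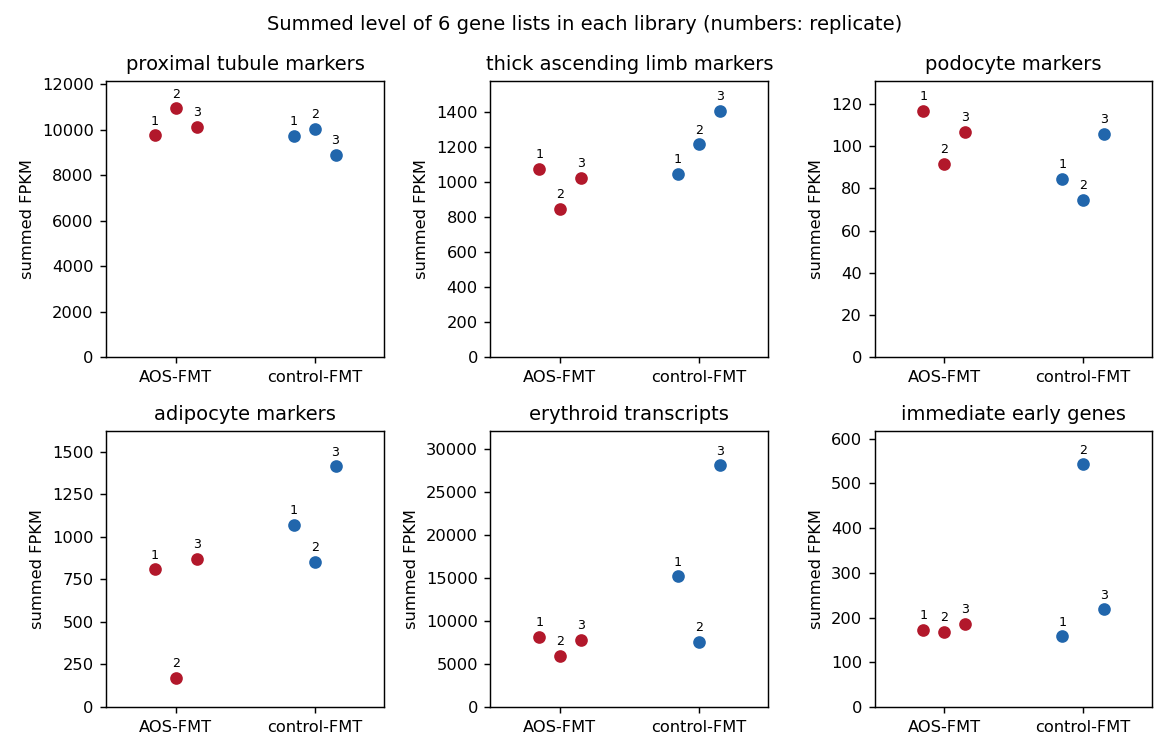
Summed FPKM (y axes, from 0) of 6 gene lists in the STZ+AOS-FMT (left, red) and STZ+control-FMT (right, blue) libraries, numbered by replicate. STZ+AOS-FMT 2 has the lowest adipocyte sum, 169 FPKM, STZ+control-FMT 3 the highest erythroid sum, 28090 FPKM, and STZ+control-FMT 2 the highest immediate early sum, 542 FPKM.

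Matrix genes and macrophage markers were mostly lower in STZ+AOS-FMT, with few genes free of overlap. Of 20 collagen and matrix genes 17 were lower, with a median of -0.21. Only 1 (Col15a1) did not overlap, 5% of the list beside 11.4% of all genes. Without STZ+AOS-FMT 1 the median was -0.33 with 9 of 18 free of overlap, beside 24.5% of all genes. Without STZ+control-FMT 2 it was -0.30 with 8 of 20, beside 23.1%. Without STZ+AOS-FMT 2 it was -0.16 with 1 of 20 free of overlap, beside 21.2% of all genes. Without STZ+AOS-FMT 3 it was -0.16 with 2 of 20, 1 of them higher, beside 19.3%. Col1a1, a fibrillar collagen gene, was at 5.63, 3.19 and 3.57 FPKM in STZ+AOS-FMT and 8.86, 5.04 and 7.01 FPKM in STZ+control-FMT, a difference of -0.64 ± 0.23 (limma adjusted p = 0.819). All 10 macrophage markers were lower, with a median of -0.13 and 0 without overlap, beside 11.4% of all genes. After quantile normalization 9 were lower and 1 higher, again with 0 without overlap. Without STZ+AOS-FMT 1 their median was -0.23 and 5 were free of overlap, beside 24.5% of all genes. Without STZ+control-FMT 2 it was -0.27 and 4 were, beside 23.1%. Without STZ+AOS-FMT 2 it was -0.13 with 1 marker higher, and 0 were free of overlap, beside 21.2% of all genes. Without STZ+AOS-FMT 3 it was -0.15 with 2 higher, and 0 were, beside 19.3%. Of 10 kept tubular injury genes 8 were lower, with a median of -0.15, but 5 were lower and 5 higher without STZ+AOS-FMT 2 (median -0.03), and 5 of 9 were lower without STZ+control-FMT 3 (median -0.0036). Among the 8 was Lcn2, the neutrophil gelatinase-associated lipocalin gene, at 7.34, 3.93 and 5.29 FPKM in STZ+AOS-FMT and 13.5, 4.74 and 19.1 FPKM in STZ+control-FMT. STZ+control-FMT 2 lay among the STZ+AOS-FMT values. Havcr1, the gene of kidney injury molecule KIM-1, was at 2.86 ± 0.0808 FPKM in STZ+AOS-FMT and 2.88 ± 0.497 FPKM in STZ+control-FMT (SD, n = 3 each), a difference of 0.00 ± 0.12. Lcn2 and Havcr1 were named after their values had been seen.

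Podocyte markers, from the filtering cells of the glomerulus, were higher for 8 of 9 genes with a median of 0.24. Only 1 (11.1%), the scaffold gene Magi2, did not overlap, beside 11.4% of all genes. Without STZ+control-FMT 3 6 did not (median 0.36, all genes 20.2%), and without STZ+AOS-FMT 2 4 did not (all genes 21.2%). Without STZ+AOS-FMT 1 it was 2 (all genes 24.5%), and without STZ+AOS-FMT 3 it was 1 (all genes 19.3%). Cdkn1c, a cell cycle inhibitor of mature podocytes, was at 23.4, 17.9 and 23.9 FPKM in STZ+AOS-FMT and 18.35, 13.96 and 16.1 FPKM in STZ+control-FMT, a difference of 0.41 ± 0.13 (limma adjusted p = 0.819). STZ+control-FMT 3 reached the STZ+AOS-FMT range for most of the list, with a sum of 105.9 FPKM beside 91.5 to 117 FPKM in STZ+AOS-FMT and 74.7 FPKM in STZ+control-FMT 2. Among intercalated cell markers, which secrete acid or base, the bicarbonate transporter genes Slc4a9 and Slc26a4 and the proton pump gene Atp6v1b1 were higher with no overlap, 3 of 9 genes, beside 6.64% of all genes. The list had 5 higher and 4 lower, with a median of 0.06 that was -0.04 without STZ+control-FMT 1. Slc4a9 was at 14.5, 13.8 and 15.7 FPKM in STZ+AOS-FMT and 11.0, 12.2 and 11.96 FPKM in STZ+control-FMT, a difference of 0.30 ± 0.08.

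Over all genes, those with the smallest p among those without overlap were spread over several roles. After Ciart, the higher ones were Map7, Ugt2b34, Tmem25, Slco1a6, Scrn2, Dbp and Il15, with log2 differences from 0.40 (Slco1a6) to 0.87 (Dbp). Map7 (chromosome 10, 20148471 to 20281590), a microtubule-binding protein gene, was at 44.2, 43.9 and 47.9 FPKM in STZ+AOS-FMT, against 32.4, 30.4 and 29.3 FPKM in STZ+control-FMT, a difference of 0.55 ± 0.07 (limma adjusted p = 0.262). Il15, a cytokine that sustains natural killer and memory T cells, was at 12.4, 13.3 and 14.1 FPKM in STZ+AOS-FMT and 8.63, 9.46 and 9.86 FPKM in STZ+control-FMT, a difference of 0.47 ± 0.08. Both genes had narrow groups with a clear gap. The lower ones were Defb42, Cidea, Lgals1, Copz2, Nt5e, Lsm4 and Adssl1. Nt5e (chromosome 9, 88327197 to 88372092), the ectoenzyme CD73 that makes adenosine from AMP, was at 22.7, 22.6 and 20.1 FPKM in STZ+AOS-FMT and 33.6, 27.6 and 33.6 FPKM in STZ+control-FMT, a difference of -0.51 ± 0.09. Lgals1, the gene of galectin-1, was at 129, 124 and 134 FPKM in STZ+AOS-FMT and 174, 158 and 167 FPKM in STZ+control-FMT, a difference of -0.36 ± 0.06. Copz2, a subunit of vesicle coats, had a difference of -0.95 ± 0.16. The limma adjusted p of these genes other than Ciart lay between 0.262 and 0.472.

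The effect of the transfer was also set against that of AOS given directly, STZ+AOS minus STZ, which shares no library with it. Of 12530 genes tested with limma for the difference of the 2 effects, 1 (0.00798%) passed at an adjusted p of 0.05, and 2329 (18.6%) had an unadjusted p under 0.05. That gene, the protamine gene Prm1, was listed at 0 in all 6 transfer libraries and in STZ+AOS, and at 20.75, 14.04 and 6.64 FPKM in STZ. Its difference therefore comes from the STZ libraries alone. Nat8f1, an acetyltransferase-like gene of the proximal tubule, came next (log2 difference of effects 1.64 ± 0.23, limma adjusted p = 0.0960), and its reads can be shared with near-identical Nat8 genes. For the clock genes the direct effect was 0.67 ± 0.66 for Ciart, 0.74 ± 0.59 for Dbp and 0.26 ± 0.37 for Arntl on the log2 scale. The transfer effect minus the direct one was 0.35 ± 0.94 for Ciart, 0.14 ± 0.83 for Dbp and -1.26 ± 0.53 for Arntl (limma adjusted p = 0.838, 0.933 and 0.251). None of these 3 differences passed over all genes. Their unadjusted limma p was 0.715 for Ciart, 0.873 for Dbp and 0.0375 for Arntl, where 18.6% of all genes were under 0.05.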

How the data were processed

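RNA sequencing values of 18 mouse kidney samples came as 1 deposited table of 19545 entries. The deposited values were taken as FPKM made by the authors; neither labels nor header state the unit, which rests on the values: their sum times gene length varied by 0.919% (coefficient of variation) over libraries and their plain sum by 5.475%. Bowtie 0.12.2 and mm10 are named in the submitters' processing notes; counting tool and annotation: not given in the sources used here. Libraries were of total RNA extracted from frozen tissue, per the labels' protocols. Coordinates are from GENCODE mouse release M21, matched by symbol.

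Genes at 1 FPKM or more in 3 or more of the 6 transfer libraries were kept, and log2(FPKM + 1) was fitted with limma 3.58.1 (R 4.3.3), trend and robust, with Benjamini-Hochberg adjustment over all genes kept. The second fit used 12 libraries. No label says that the libraries come from separate mice, and the p-values cover spread between samples that may be only technical. Worth of 1 read was estimated from 53 to 71 genes per library. The fit was checked on simulated data. No model of counts was used, as the values are not counts.

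The groups compared and the gene lists were chosen with earlier results of these data known. Named were up to 8 genes per direction with the smallest p among those without overlap, a larger group mean of 1 FPKM or more and a symbol that is not a predicted one, and up to 4 members per list by p. The clock genes, and a few genes named as such, were added after their values were seen. Of the genes these rules name, 1 clock gene and 1 other are counted but not reported here. The alternatives were other scalings, filters, pseudocounts of 0.1 and 5, limma without trend and robust, library weights, a replicate block, all 18 libraries and each library left out.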

Additional observations from a re-analysis of the deposited data

Results flagged for a closer look

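Prm1 had a transfer effect that differed from the direct effect of AOS, with a log2 difference of 3.76 ± 0.40 (limma adjusted p = 0.0166), which is what drew attention to it. It was listed at 0 in the 3 STZ+AOS-FMT, the 3 STZ+control-FMT and the 3 STZ+AOS libraries, and at 20.75, 14.04 and 6.64 FPKM in the 3 STZ libraries. The value thus holds no signal from either transfer group.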

How the results depend on the processing

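In the comparison of STZ+AOS-FMT with STZ+control-FMT limma called 0 genes under each alternative over all libraries (209 to 1014 genes at an unadjusted p under 0.05), and 0 to 1 with each library left out, the 1 being Dbp without STZ+control-FMT 2. Without STZ+AOS-FMT 3 the log2 difference turned sign for Cry1, Nr1d1 and Per1. With each library left out these ranged from -0.087 to 0.41 (Cry1), -0.24 to 0.14 (Nr1d1) and -0.11 to 0.59 (Per1). Of the alternative values of named single genes, 484 kept their direction and side of the threshold, 3 turned and 1, Dbp, passed. The cause was not tested. The adjusted p of Ciart ranged from 0.0526 (mean of at least 5 FPKM) to 1 (all 18 libraries).

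For the transfer effect minus the direct effect, 1 gene in the fit reported, the count was 0 after quantile normalization, 0 after median-of-ratios rescaling, 19 with no filter, 0 with a mean of at least 5 FPKM, 7 with a pseudocount of 0.1, 0 with a pseudocount of 5, 5 with library weights and 8 with all 18 libraries. It was 0 to 388 with each library left out, 388 without STZ 3 and 29 without STZ+AOS 2. The median over all genes was -0.19 as fitted and 0.03 and 0.02 under the scalings.

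Same-numbered libraries of the transfer groups deviated together at r = 0.032, 0.263 and 0.172, not every one over 0.1, so they are taken to share only a number. STZ+AOS-FMT 2 and 3 correlated best with the STZ+control-FMT library of their own number, and STZ+AOS-FMT 1 with STZ+control-FMT 3. With the replicate number as a block 0 genes passed in the first comparison (919 at an unadjusted p under 0.05) and 0 in the second, where the adjusted p of Prm1 was 0.0543. Depth is unknown, so low genes such as Arntl and Npas2 have no counting interval.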

Other observations

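Lipid metabolism did not move one way. Acot1, a thioesterase gene that PPAR-alpha drives, was at 45.8, 72.85 and 42.9 FPKM in STZ+AOS-FMT, against 91.9, 93.9 and 85.0 FPKM in STZ+control-FMT, a log2 difference of -0.77 ± 0.19 (limma adjusted p = 0.723). Of 16 kept PPAR-alpha and ketogenesis genes 6 were higher and 10 lower, and Acot1 was the 1 without overlap (6.25%), beside 11.4% of all genes. In mitochondrial fatty acid oxidation, Acadm, the medium-chain acyl-CoA dehydrogenase gene, was at 382, 382 and 401 FPKM in STZ+AOS-FMT and 411, 512 and 503 FPKM in STZ+control-FMT, while Acaa2, the thiolase gene of the same pathway, was at 163, 152 and 164 FPKM in STZ+AOS-FMT and 149, 125 and 122 FPKM in STZ+control-FMT. The groups of both genes did not overlap, in opposite directions, and the list of 19 had 10 higher and 9 lower. In that list 4 genes (21.1%) did not overlap, 3 lower and 1 higher, beside 11.4% of all genes. Stard4, a sterol carrier gene, was at 15.3, 11.97 and 14.7 FPKM in STZ+AOS-FMT and 9.72, 10.45 and 10.0 FPKM in STZ+control-FMT, a difference of 0.43 ± 0.10 (limma adjusted p = 0.608).

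Interferon-stimulated genes were higher for 15 of 20 with a median log2 difference of 0.09, and 0 were free of overlap, beside 11.4% of all genes. Without STZ+AOS-FMT 1 their median was -0.06. Cfb, the complement factor B gene, was at 194, 203 and 211 FPKM in STZ+AOS-FMT and 165, 174 and 153 FPKM in STZ+control-FMT, a difference of 0.30 ± 0.07 (limma adjusted p = 0.608). The neutrophil transcript S100a9 was at 0.62, 1.05 and 0.88 FPKM in STZ+AOS-FMT and 1.99, 4.91 and 2.37 FPKM in STZ+control-FMT, 1 of 7 neutrophil markers above the filter. None of 9 spermatid transcripts reached 1 FPKM in any of the 6 libraries.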
